A study of Mus musculus with 6 samples.

Results

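Zfp genes encode zinc finger proteins, in which short loops held by a zinc ion read DNA or RNA, and 233 of the 304 Zfp genes on the array were measured in G1-arrested murine pre-B cells with and without 1 Gy of ionizing radiation. The members were the genes whose only platform symbol is Zfp followed by a number, except Zfp36, with a signal of 100 or more on at least 1 of 6 arrays. The brightest probe set, the group of short probes that gives 1 signal, stood for each gene. The 304 genes have 574 probe sets, of which 382 passed the minimum, and 71 genes stayed under 100 on every array. Just inside the minimum lay Zfp462, with a highest signal of 102.5, and just outside lay Zfp169, with 98.4. A member that passed through 1 dose alone was open to a difference by that choice. Of the members called below, 4 that fell (among them Zfp41, Zfp316 and Zfp324) and 1 that rose (Zfp423) passed this way. Over all members, 182 of the 233 reached 100 on all 6 arrays.

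The cells were 3 v-Abl-transformed pre-B lines of independent derivation from WT mice, and each line gave 1 array of mock-irradiated cells (0 Gy) and 1 array of irradiated cells (1 Gy). All groups share the v-abl oncogene and an Eμ-Bcl2 transgene, whose enhancer is active in B cells and whose product counters apoptosis. All cultures were also held in 3 μM STI-571, an inhibitor of the v-Abl kinase, for 48 hr, so that they rested in G1. Irradiation was at 0.72 Gy per min in a cesium source, and cells were pelleted 2 hr later. These are transformed lines with 1 array per line and dose, so that p-values measure the spread of the response between lines. Of 12 pre-B markers, 10 have a probe set with a single name and all 10 reached 100 on every array, with summed signals of 100931 to 106651 at 0 Gy and 79589.6 to 107604 at 1 Gy. Of these 10, Rag1, Rag2 and Dntt were called lower (log2 fold changes -1.77, -2.40 and -0.94) and 0 higher. No marker of T cells (0 of 6), erythroid cells (0 of 2 on the array) or stromal cells (0 of 4) reached 100. Of 6 myeloid markers 2 did, and they moved in opposite directions. Itgam, at 100 or more on all 6 arrays, rose from 152 ± 19 to 279 ± 56 (SD, n = 3, limma adjusted p = 0.0227), while Csf1r, over 100 on 1 array, fell from 68.2 ± 43.8 to 33.5 ± 11.5 (adjusted p = 0.0478). The summed myeloid signal was 237 to 313 at 0 Gy and 329.6 to 419 at 1 Gy, and its part in the results was not tested.

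Most mammalian Zfp proteins have fingers of the C2H2 type, and many also carry a KRAB domain. A KRAB domain binds the corepressor TRIM28, which brings the histone methyltransferase SETDB1 and silences DNA, often at transposable elements. KRAB zinc finger genes arose by repeated duplication and lie in clusters on the chromosomes. Other Zfp proteins have no KRAB domain and serve as activators, as RNA-binding proteins or as cofactors, and a few of these act in B cell development.

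The stretches of 250 bases before the start sites of 4 genes that moved are shown, Zfp318 and Zfp52 for the genes that rose and Zfp61 and Zfp398 for those that fell. Sequences are RefSeq's, of build GRCm38.p6, and capitals mark the GC box GGGCGG on either strand. The window of Zfp318 lies at chr17:46383516-46383765 (plus strand), that of Zfp52 at chr17:21535289-21535538 (plus), that of Zfp61 at chr7:24299550-24299799 (minus) and that of Zfp398 at chr6:47835411-47835660 (plus).
Zfp318: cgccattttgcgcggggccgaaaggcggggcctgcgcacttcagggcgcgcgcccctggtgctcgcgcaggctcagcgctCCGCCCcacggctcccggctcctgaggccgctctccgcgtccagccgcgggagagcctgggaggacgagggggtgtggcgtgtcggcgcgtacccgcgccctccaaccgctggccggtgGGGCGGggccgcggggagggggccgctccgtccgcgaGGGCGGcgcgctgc
Zfp52: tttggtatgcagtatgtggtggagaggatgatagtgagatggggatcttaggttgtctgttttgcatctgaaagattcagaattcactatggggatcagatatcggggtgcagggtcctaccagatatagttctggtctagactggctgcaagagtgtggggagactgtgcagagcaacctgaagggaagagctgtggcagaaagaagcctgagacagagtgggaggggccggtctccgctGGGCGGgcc
Zfp61: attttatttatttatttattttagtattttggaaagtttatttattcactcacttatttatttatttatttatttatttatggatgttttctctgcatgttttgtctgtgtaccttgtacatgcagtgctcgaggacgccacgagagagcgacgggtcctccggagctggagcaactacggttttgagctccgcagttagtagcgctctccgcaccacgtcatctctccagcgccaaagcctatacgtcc
Zfp398: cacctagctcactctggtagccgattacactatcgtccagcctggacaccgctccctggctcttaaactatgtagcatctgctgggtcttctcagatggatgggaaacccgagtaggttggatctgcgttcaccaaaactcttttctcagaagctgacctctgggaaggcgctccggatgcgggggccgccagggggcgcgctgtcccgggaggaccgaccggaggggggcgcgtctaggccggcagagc
These windows hold 3 GC boxes for Zfp318, 1 for Zfp52 and 0 for both Zfp61 and Zfp398. None of the 4 holds the letters CCAAT on either strand. The windows also differ in base composition, from 79.6% G and C with 39 CpG dinucleotides before Zfp318 to 41.2% with 13 before Zfp61. Over all called members, in the windows described below, the GC box was in 7 of 8 windows of risen genes and 10 of 23 of fallen ones.

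More Zfp genes fell than rose 2 hr after 1 Gy. In limma with the line as a block, 22 of the 233 members (9.44%) fell and 8 (3.43%) rose at an adjusted p under 0.05, beside 14.7% of all 9678 genes tested that fell and 6.61% that rose. The share of members called was thus below the background in both directions. All 30 called members moved the same way in 3 of 3 lines, which a call paired over 3 lines itself favours. Called or not, 37.8% of members fell and 18.9% rose in all 3 lines, beside 41.3% and 23.7% of all genes. Signals of 21 of the 30 did not overlap between doses, a count among genes already chosen by their call. In 4 of the falls and 1 of the rises all 3 arrays of the dimmer dose were under 100, so that the size of the change was not resolved. The other 18 falls measured 1.45-fold to 3.80-fold and the other 7 rises 1.49-fold to 3.94-fold, with 7 of these falls and 5 of these rises reaching 2-fold. Those 7 falls include Zfp521, whose line 3 was far under 100 at both doses, and a gene with a mean under 100 at both doses. With signals under 100 set to 100, 16 of the 22 falls and 7 of the 8 rises kept their call. That setting called 28 members lower and 8 higher in total, beside 15.9% and 7.59% of all genes. Without the block, 6 members fell (background 3.2%) and 3 rose (background 2.11%). Scaling also moved the balance, with 14 falls and 9 rises after quantile normalization and 14 and 8 after scaling to a common median, where 12.4% and 11.9% of all genes fell and 6.87% and 7.05% rose. With any 1 of the lines left out, 0 falls of members were called. A rise of 1 member, Zfp318, was called without line 3, and 0 without line 1 or 2. Of all genes, 0 were called without line 1 or 2, and without line 3 0.754% fell and 0.827% rose. In these fits 39 to 53 members were lower at an unadjusted p under 0.05 in limma. With all lines, 58 members and 2695 of all 9678 genes were lower at that threshold. In cultures read as a whole, fewer cells that express a gene and less RNA per cell cannot be told apart.

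Small shifts were the rule over the whole family. The log2 fold change stayed under 0.5 in size for 168 of the 233 members, and it was negative for 147 and positive for 86. Negative values made up 63.1% of the members and 60.3% of all genes. The quartiles of the log2 fold change were -0.43 and 0.13 for the members, close to -0.46 and 0.17 for all genes. Its median was -0.15, beside -0.11 over all genes tested. After quantile normalization these medians were -0.07 and -0.08, and without line 3 they were -0.09 and -0.10. The median of the members was -0.03, -0.13 and -0.24 in lines 1, 2 and 3, against -0.09, -0.13 and -0.12 for all genes, so that line 3 had the lowest median of the members. Groups of 3 arrays did not overlap between doses for 64 members (46 lower and 18 higher), or 27.5%, beside 32.9% of all genes.

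The genes that rose were mostly bright and those that fell mostly dim, with a mean of 1000 or more in the brighter dose for 6 of the 8 rises and 2 of the 22 falls. Zfp318 encodes a nuclear protein that B cells need to make IgD, where it lets transcription and splicing run on from Ighm into Ighd. Its signals were 2134, 1361 and 2678 at 0 Gy in lines 1, 2 and 3 and 9646, 5925 and 8314 at 1 Gy. The doses were far apart, with every irradiated array above every mock-irradiated array. The log2 fold change was 1.98 ± 0.16 (SE, adjusted p = 0.0110), and the other 4 probe sets of Zfp318 were also called higher. Zfp318 was 1 of the 3 rises called without the block.

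Zfp423 and its paralog Zfp521 are large proteins of many fingers that bind the B lineage factor EBF1 and restrain it, and Zfp423 is also a partner of SMAD proteins in BMP signalling. For Zfp423 the signals were 24.0, 23.2 and 19.4 at 0 Gy and 62.1, 78.9 and 140.4 at 1 Gy. The groups did not overlap, but only 1 of the 6 arrays, irradiated line 3, reached 100. Zfp423 thus had a log2 fold change of 2.00 ± 0.31 (adjusted p = 0.0239), and with signals under 100 set to 100 it was 0.16 (adjusted p = 0.455). Zfp521 moved the other way, from 126, 375 and 6.97 at 0 Gy to 71.3, 165 and 2.78 at 1 Gy. The doses overlapped, because the lines differed far more than the doses, while each line was lower after 1 Gy. For Zfp521 the log2 fold change was -1.11 ± 0.15 (adjusted p = 0.0183), against an adjusted p of 0.801 without the block and 0.215 with signals under 100 set to 100. With a trend in limma's variance prior its adjusted p was 0.0930.

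Zfp296 and Zfp281 are both best known from pluripotent stem cells, where Zfp281 binds and represses Nanog. Zfp296 had signals of 1241, 1387 and 1374 at 0 Gy and 2856, 2505 and 3559 at 1 Gy, a log2 fold change of 1.14 ± 0.15 (adjusted p = 0.0178). Mock-irradiated lines were close to each other and all 3 irradiated arrays stood above them. Zfp281 went from 1995, 1712 and 1634 to 3452, 2276 and 2811, a log2 fold change of 0.66 ± 0.14 (adjusted p = 0.0401, and 0.121 without the block). These groups did not overlap either, with line 2 the lowest after 1 Gy. Zfp275 rose from 1196, 1019.6 and 1235 to 1687, 1698 and 1754, with a log2 fold change of 0.58 ± 0.12 (adjusted p = 0.0407, and 0.0734 without the block). Its irradiated arrays were within a narrow band above all 3 mock-irradiated arrays.

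The remaining 3 rises overlapped between doses, and the lines were called different for Zfp52 and Zfp948 but not for Zfp608. Zfp608 measured 1616, 1403 and 3021 at 0 Gy and 5615, 3018 and 10864 at 1 Gy, so that line 2 after 1 Gy was level with line 3 before it. Its log2 fold change was 1.58 ± 0.19 (adjusted p = 0.0167, and 0.152 without the block). For Zfp52 the signals were 443, 678 and 1948 at 0 Gy and 1136, 1862 and 3757 at 1 Gy, and for Zfp948 they were 80.8, 207 and 576 and then 253, 468 and 998. Both genes had their highest signals in line 3 and their lowest in line 1 at either dose, and both overlapped between doses. Paired by line, the log2 fold change was 1.25 ± 0.15 for Zfp52 (adjusted p = 0.0163, and 0.336 without the block) and 1.20 ± 0.20 for Zfp948 (adjusted p = 0.0256, and 0.451 without the block).

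**Figure D1:**
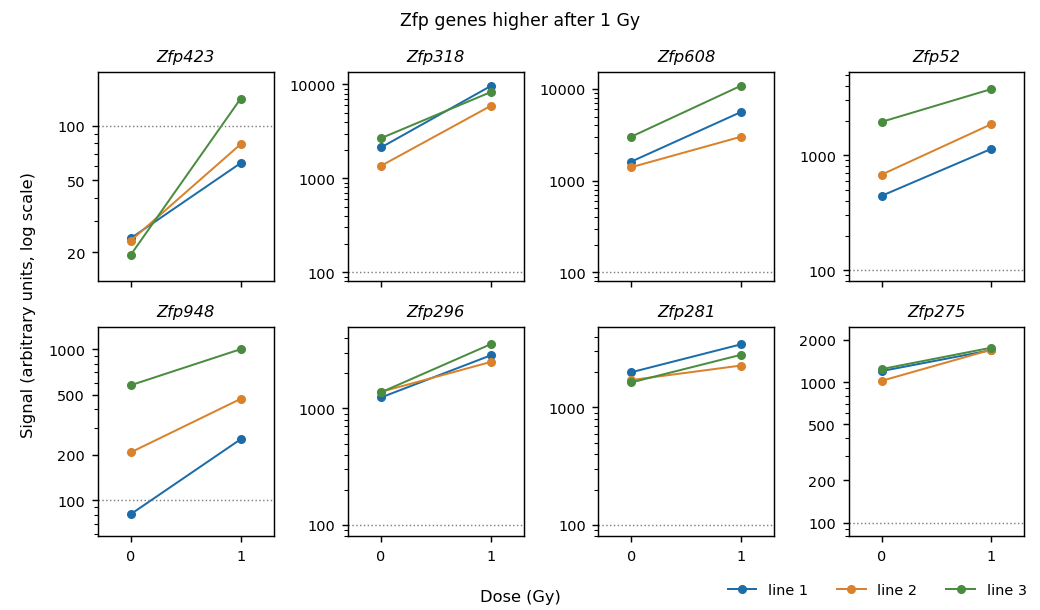
Signals of the 8 Zfp genes called higher, on a log axis in arbitrary units, at 0 and 1 Gy, where each point is 1 array, lines join the arrays of 1 cell line and the dotted line marks a signal of 100. All 8 genes rise in 3 of 3 lines, and the doses overlap for Zfp608, Zfp52 and Zfp948.

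The largest fall was that of Zfp61, from 315, 387 and 399.8 at 0 Gy to 111, 94.0 and 85.7 at 1 Gy. Zfp398 was close to it in level and in size of change, with 304, 313 and 389 at 0 Gy and 112, 99.8 and 85.7 at 1 Gy. Neither gene overlapped between doses, and for both line 3 was the highest before and the lowest after irradiation. Zfp61 had a log2 fold change of -1.92 ± 0.18 (adjusted p = 0.0122) and Zfp398 one of -1.76 ± 0.18 (adjusted p = 0.0144). Of the 4 other probe sets of Zfp398, all 4 were lower and 2 were called.

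Further falls without overlap were those of Zfp41, Zfp956 and Zfp846. Zfp41 had signals of 152, 103 and 136 at 0 Gy and 58.9, 41.6 and 40.7 at 1 Gy, a log2 fold change of -1.47 ± 0.14 (adjusted p = 0.0125). All its irradiated arrays were under 100, and with signals under 100 set to 100 the log2 fold change was -0.36 (adjusted p = 0.145). Zfp956 went from 496, 494 and 353 to 193, 175 and 189, a log2 fold change of -1.25 ± 0.16 (adjusted p = 0.0176). Zfp846 went from 293, 364 and 299.9 to 154, 174 and 111, a log2 fold change of -1.15 ± 0.15 (adjusted p = 0.0176). The irradiated arrays of Zfp956 lay closer together than its mock-irradiated ones, while Zfp846 had its lowest signal in line 3 after 1 Gy. Along with Zfp61, Zfp398 and Zfp316, these 3 genes made up the 6 falls called without the block. Of them, Zfp41 and Zfp316 passed the minimum of 100 through the 0 Gy arrays alone.

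Zfp1 fell from 378, 410.4 and 274 to 188, 236 and 81.2, with a log2 fold change of -1.19 ± 0.22 (adjusted p = 0.0329), and its fall was steepest in line 3. Zfp523, whose human counterpart ZNF76 resembles the activator of small nuclear RNA genes, measured 289, 253 and 261 at 0 Gy and 179.7, 124 and 148 at 1 Gy. Its groups did not overlap, and the log2 fold change was -0.85 ± 0.13 (adjusted p = 0.0224). Zfp316, Zfp101 and Zfp40 fell by similar amounts, with log2 fold changes of -0.88, -0.83 and -0.82. All 3 irradiated arrays of Zfp316 were under 100, and its log2 fold change was -0.55 with signals under 100 set to 100 (adjusted p = 0.0337). Zfp324 had a mean of 102 ± 17 at 0 Gy and 50.7 ± 16.1 at 1 Gy (SD, n = 3), and its log2 fold change of -1.05 was -0.10 with signals under 100 set to 100 (adjusted p = 0.529). With a trend in limma's variance prior its adjusted p was 0.0506. Of these 6 genes, 5 lost the call without the block, where the adjusted p was 0.0516 for Zfp101, 0.0586 for Zfp523, 0.0701 for Zfp40, 0.110 for Zfp324 and 0.173 for Zfp1.

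**Figure D2:**
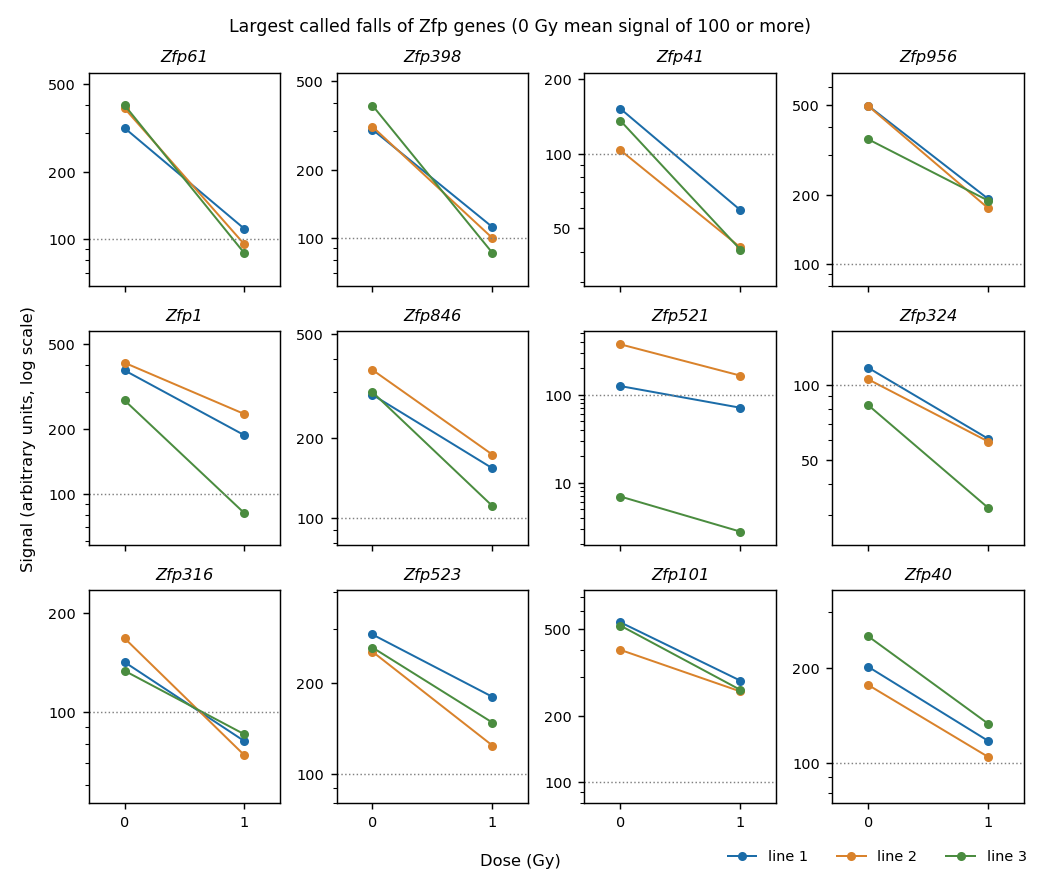
Signals of the 12 Zfp genes with the largest called falls among those with a mean of 100 or more at 0 Gy, on a log axis in arbitrary units, where each point is 1 array, lines join the arrays of 1 cell line and the dotted line marks a signal of 100. Every gene falls in 3 of 3 lines, and the lines of Zfp521 lie far apart.

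Zfp809 recognises the primer binding site of murine leukaemia viruses and recruits TRIM28 to silence them. It measured 1317, 1479 and 922 at 0 Gy and 867, 966 and 682 at 1 Gy, which makes it the brightest of the called falls at 0 Gy. The doses overlapped, since irradiated line 2 was above mock-irradiated line 3. The log2 fold change was -0.55 ± 0.12 (adjusted p = 0.0411), and the adjusted p was 0.0570 after quantile normalization, 0.0616 after scaling to a common median and 0.240 without the block. The other 9 falls were those of Zfp759 and Zfp78, with means under 100 at both doses, and of Zfp128, Zfp709, Zfp983, Zfp74, Zfp995, Zfp821 and Zfp692. These 9 were outside the rule for named genes and are listed for completeness.

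Several probe sets of a gene pointed the same way. Of the 22 genes that fell, 9 have 13 other tested probe sets, all 13 of these were lower and 4 were called. Of the 8 genes that rose, 4 have 7 others, and all 7 were called higher. Probe sets whose name marks sequence shared with other transcripts stood for 16 members, and 0 of these were called. The share called was 12.9% of all members and 21.3% of all genes, and the difference was not tested.

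Members with a studied function were called at a share near that of all genes (20.7% beside 21.3%). They were brighter than the members as a whole, with a median signal of 1159 beside 405. A list of 35 such genes has 29 measured members, of which 3 fell (Zfp1, Zfp521 and Zfp809), 3 rose (Zfp281, Zfp318 and Zfp423) and 23 did not pass the test. Each direction holds 10.3% of the 29, beside 14.7% of all genes lower and 6.61% higher, and without the block 0 fell and 2 rose. The log2 fold changes of those 23 ran from -0.84 for Zfp292 (adjusted p = 0.0766) to 0.50 for Zfp335 (adjusted p = 0.102), a coactivator needed in lymphocytes. Zfp335 measured 687, 975 and 882 at 0 Gy and 1208, 1109 and 1245 at 1 Gy, and Zfp292 3161, 2904 and 2701 and then 1926, 2265 and 994. The doses did not overlap for either gene, although neither was called. Both were called with a trend in limma's variance prior (adjusted p = 0.0265 and 0.0101), Zfp292 also with a minimum of 100 on 3 arrays (adjusted p = 0.0497), and of the 5 other probe sets of Zfp292, 4 were lower and 2 called. Zfp384, a fusion partner in B cell leukaemia, likewise did not overlap, with 2676, 2873 and 2585 at 0 Gy and 3538, 3441 and 3404 at 1 Gy (log2 fold change 0.35 ± 0.11, adjusted p = 0.0989). It too was called with the trend in the variance prior (adjusted p = 0.0259).

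Members with roles in RNA and protein handling that are named here did not pass the test. Zfp622, a factor of ribosome biogenesis and the brightest member, had signals of 9394, 9283 and 11296 at 0 Gy and 12618, 10582 and 16982 at 1 Gy. Its groups overlapped and the log2 fold change was 0.40 ± 0.13 (adjusted p = 0.106, and 0.0326 with a trend in the variance prior). Zfp593, which also acts in ribosome biogenesis, had a log2 fold change of 0.42 ± 0.14 (adjusted p = 0.104). Values for Zfp598, a sensor of collided ribosomes (-0.05), for Zfp326, a link between splicing and elongation (-0.02, and 0.06 after quantile normalization), and for Zfp207, a kinetochore protein that binds Bub3 (0.11, and -0.01 over all its probe sets), were close to 0. The next brightest members were Zfp445 and Zfp91, a ubiquitin ligase of the kinase NIK, with log2 fold changes of 0.02 ± 0.12 (-0.05 after quantile normalization) and -0.15 ± 0.11.

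Direction went with the level of the gene. Under a geometric mean signal of 256, 14 of 86 members fell and 1 rose, with a median log2 fold change of -0.27. Between 256 and 1024, 8 of 93 fell and 1 rose, with a median of -0.11. Above 1024, 0 of 54 fell and 6 rose, with a median of 0.10. All genes tested showed medians of -0.31, -0.21 and 0.01 in the same ranges, with 18.5%, 19.1% and 9.26% of genes lower and 4.47%, 5.29% and 8.78% higher. The medians of the dim and the bright members kept their signs after quantile normalization (-0.17 and 0.09) and after scaling to a common median (-0.22 and 0.15). The median signal was 405 for the members and 816 for all genes.

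**Figure D3:**
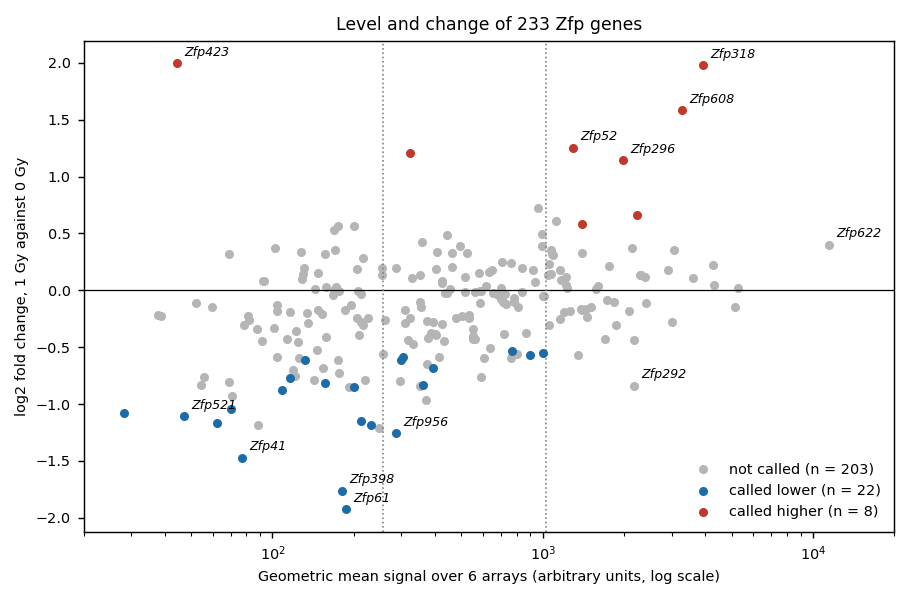
The log2 fold change (1 Gy against 0 Gy) of 233 Zfp genes against their geometric mean signal over 6 arrays, on a log axis in arbitrary units, where each point is 1 gene, red and blue mark genes called higher (8) and lower (22) and dotted lines mark 256 and 1024. The called falls all lie to the left of 1024, and 6 of the 8 called rises lie to its right.

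Cell lines differed in some Zfp genes by more than the dose did. At an adjusted p under 0.05, 18 members (7.73%) differed between the 3 lines, beside 9.7% of all genes, and 8, 16 and 6 did so without lines 1, 2 and 3. The range between line means on the log2 scale went from 0.97 for Zfp983 to 5.82 for Zfp521, whose low line was far under 100 at both doses, while its median over all 233 members was 0.44. In 7 of the 18 genes at least 1 line was under 100 on both of its arrays. Zfp182 had signals of 9.11 at 0 Gy and 10.9 at 1 Gy in line 1, against 394 and 297 in line 2 and 361 and 306 in line 3. Zfp429 was the low gene of line 2, at 10.4 and 10.5, against 335 and 322 in line 1 and 206 and 459 in line 3. Both genes thus showed signal in all but 1 line, at either dose, and neither was called for dose (adjusted p = 0.626 and 0.393). The highest line was line 3 for 9 of the 18 genes, line 2 for 6 and line 1 for 3. Dose was also called for 5 of them, Zfp52 and Zfp948 with rises and Zfp521, Zfp983 and Zfp78 with falls.

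**Figure D4:**
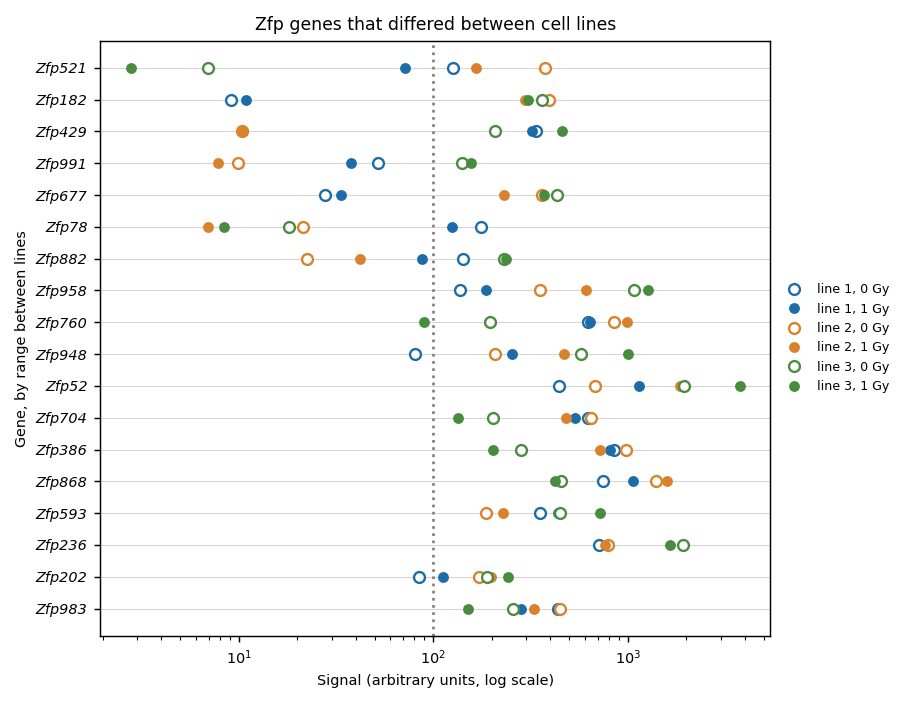
Signals of the 18 Zfp genes that differed between cell lines, ordered by the range between lines, on a log axis in arbitrary units, where open points are arrays at 0 Gy, filled points arrays at 1 Gy, colours mark the lines and the dotted line marks a signal of 100. For most genes the 2 points of a line lie close to each other and apart from those of another line, as for Zfp182 in line 1 and Zfp429 in line 2.

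Position was examined because Zfp genes lie in clusters. In the order of protein-coding genes given by RefSeq (GRCm38.p6), 92 of the 233 members lay next to another member, in 32 runs. Of these 92, 14 fell (15.2%) and 2 rose (2.17%), with a median log2 fold change of -0.21. Of the 141 others, 8 fell (5.67%) and 6 rose (4.26%), with a median of -0.10. The share of neighbouring members that fell was near the 14.7% of all genes. The difference between these counts was not tested, and neighbours in a run can share sequence.

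A run of 6 genes (Zfp398, Zfp282, Zfp212, Zfp956, Zfp777 and Zfp746) had a negative log2 fold change for all 6. Only Zfp398 and Zfp956 of these were called, and the other values were -0.38 for Zfp282, -0.26 for Zfp212, -0.44 for Zfp777 and -0.12 for Zfp746, which encodes the parkin substrate PARIS. A run of 7 genes (Zfp677, Zfp54, Zfp51, Zfp53, Zfp52, Zfp948 and Zfp983) moved in both directions, with Zfp52 and its neighbour Zfp948 higher and the adjoining Zfp983 lower. Zfp983 measured 436, 446 and 256 at 0 Gy and 282, 331 and 150.3 at 1 Gy (log2 fold change -0.61 ± 0.13, adjusted p = 0.0407). The lines overlapped between doses there, and line 3 was the lowest, whereas it was the highest for Zfp52 and Zfp948. Between lines, 4 of the 7 genes differed. The longest run, of 9 genes from Zfp84 to Zfp568, had 7 negative values and 1 called fall, that of Zfp74.

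**Figure D5:**
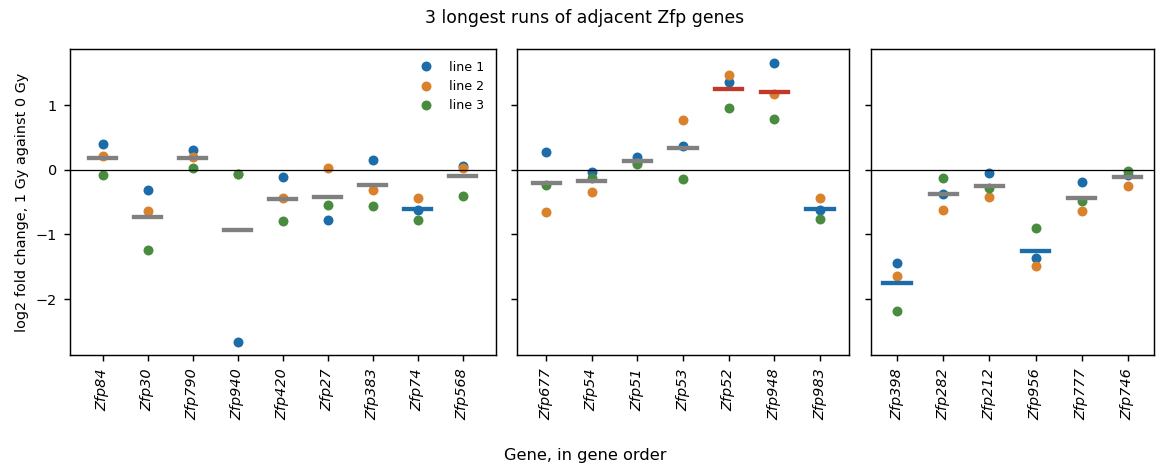
The log2 fold change (1 Gy against 0 Gy) of each gene in the 3 longest runs of adjacent Zfp genes, of 9, 7 and 6 genes, in gene order, where points are the 3 cell lines and bars their mean, in blue for called falls, red for called rises and grey otherwise. Zfp52 and Zfp948 stand above 0 in the middle run, and Zfp398 and Zfp956 are the lowest of the run of 6 genes.

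Promoter sequences were found for 195 of the 233 members, with 240 start sites, in windows from 250 bases before to 50 after the start. The GC box GGGCGG, on either strand, was in 7 of the 8 windows of genes that rose and in 10 of the 23 windows (43.5%) of genes that fell. It was in 50.4% of the members' windows, in 63.7% of those of all genes tested and in 35.6% of all 32817 windows. The letters CCAAT, on either strand, were in 3 of 8 windows of risen genes and 11 of 23 of fallen ones, beside 47.9% of the members' windows, 38.1% of those of genes tested and 37.4% of all. An NF-kB site was in 0 of the 8 and 0 of the 23, beside 3.75% of the members' windows, 5.13% of those of genes tested and 4.5% of all. A p53 half-site was in 1 of the 8 and 0 of the 23, beside 6.67% of the members' windows, 6.65% of those of genes tested and 8.36% of all. These are matches of letters in a short window, and several windows can belong to 1 gene.

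Of the partners through which KRAB proteins silence DNA, a share near the background was called. Among 27 listed corepressor genes 26 were measured, of which 3 fell (11.5%, background 14.7%) and 2 rose (7.69%, background 6.61%), with a median log2 fold change of -0.06, and 0 fell and 1 rose without the block. Trim28 itself had a mean of 6028 at 0 Gy and 5522 at 1 Gy (log2 fold change -0.13, adjusted p = 0.449). Setdb1 fell (log2 fold change -0.56 ± 0.12, adjusted p = 0.0466), as did Dnmt1, the maintenance DNA methyltransferase (-1.08 ± 0.14, adjusted p = 0.0174), and Uhrf1, its guide to replicated DNA (-1.04 ± 0.13, adjusted p = 0.0169). Chd4, the helicase of the NuRD complex, rose from 3319 ± 104 to 7435 ± 941 (SD, n = 3, log2 fold change 1.16 ± 0.12, adjusted p = 0.0146), and Trim24 rose as well (0.97 ± 0.16, adjusted p = 0.0266).

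Zinc finger families named otherwise had 1 to 4 genes that fell and 0 to 2 that rose, against 14.7% and 6.61% of all genes. Of 32 Zbtb genes, whose proteins join fingers to a BTB domain, 4 fell (12.5%) and 2 rose (6.25%), and 0 did so without the block, with Zbtb10 up by 1.65 and Zbtb25 down by a log2 fold change of -1.25 as the largest of each. Of 14 Zscan and Zkscan genes, which carry a SCAN domain, 1 fell (7.14%), Zkscan17 (log2 fold change -0.97 ± 0.13), which was also called without the block, and 11 values were negative. Of 13 Zc3h genes, whose fingers bind RNA, 2 fell and 2 rose (15.4% each), and 0 and 1 without the block. The largest of these was Zc3h12a, which encodes the RNase Regnase-1, from 269 ± 61 at 0 Gy to 1107 ± 313 at 1 Gy (SD, n = 3, log2 fold change 2.03 ± 0.13, adjusted p = 0.0103). Compared with the Zfp members, none of these differences in count was tested.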

How the data were processed

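Total RNA from 6 cultures was hybridised to Affymetrix mouse arrays. The deposited intensity of each probe set is on a linear scale, made with MAS5 according to the submitters' processing notes. After trimming 2% of probe sets at either end, every array has a mean of 500. The study's methods describe RMA from scanner files, which were not used here. The labels name the IVT Express kit and the study's methods another amplification protocol.

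Signals under 1 were set to 1 and log2 values taken. Besides 64 control probe sets, which did not enter, the arrays hold 45037, of which 21762 reached 100 on at least 1 array and were tested with limma (version 3.58.1, R 4.3.3). Dose was tested with the cell line as a block, p-values were adjusted by Benjamini-Hochberg across these 21762, and an adjusted p under 0.05 made a call. Every adjusted p in the text comes from limma. Differences between lines came from the same fit. Precision is limited by 3 arrays per dose, and no detection flags were used. Between 41.7% and 43.8% of probe sets reached 100 on an array. The ratio of 3' to 5' probe sets of actin was 1.45 ± 0.05 at 0 Gy and 1.32 ± 0.06 at 1 Gy (SD, n = 3), lower in 3 of 3 lines, and that of Gapdh 0.820 ± 0.071 and 0.793 ± 0.008, lower in 1 of 3 lines, and their part in the results was not tested. The procedure was also run on simulated data with normal noise and the same spread of line effects for every probe set. That setting had no floor at low signal and no lines as far apart as those of Zfp521. It therefore does not cover the dim members.

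The replicate numbers mark cell lines, by the series' design text. Deviations from the group means correlated at 0.668 to 0.781 for arrays of the same number (3 pairs) and at -0.495 to -0.053 for different numbers (6 pairs). Centring each dose on its own mean pushes the second range to negative values once the first is positive. Only the first range therefore bears on the pairing.

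Names came from the platform's annotation (34945 probe sets with 1 name, 932 with several and 9160 not listed). All 233 members matched RefSeq by gene ID, with 0 changed symbols. RefSeq's GRCm38.p6 tables gave gene order and promoters. Named genes were the 12 largest falls and 12 largest rises among members called, moved alike in 3 of 3 lines and with a mean of 100 in the brighter group (7 rises qualified), measured members with known roles, the 3 brightest members, and up to 4 called genes of each other list. Members and lists were chosen with earlier results of these data known. The alternatives changed the block, filter, scaling, pseudocount, floor, variance prior, probe sets of a gene, fold minimum, test and lines used.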

Additional observations from a re-analysis of the deposited data

How the results depend on the processing

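The median log2 fold change of the members stayed negative under each alternative run, between -0.16 and -0.07. That of all genes was negative too, between -0.12 and -0.06, so the sign is not particular to the members. The members were not lower than all genes after quantile normalization (-0.07 and -0.08) or without line 3 (-0.09 and -0.10). Counts of calls depended on the processing, and falls did not outnumber rises without filter or with a line left out. Of the 24 named members that were not called, 7 with a log2 fold change of at most 0.11 in size changed sign under an alternative, and 0 of the 21 called did. Without the replicate block, the pairing by cell line was ignored, and 6 members were lower, 3 higher and 1 corepressor gene called, against 22, 8 and 5 with it. With no filter on low values (304 members), the counts were 0 lower, 0 higher, 0 different between lines and 0 corepressors, while 39 members were lower and 12 higher at an unadjusted p under 0.05 in limma. Of all 18193 genes, 0 were called for dose there. With 100 or more on 3 arrays, 34 of 214 members were lower, 19 of them among the 22, and 8 were higher. Of all genes, 19.1% were lower and 8.92% higher in that setting. Quantile normalization gave 14 lower and 9 higher and scaling to a common median 14 and 8. Falls thus made up 60.9% and 63.6% of the calls, against 73.3%. Over all genes, 1196 were lower and 665 higher with the first, 1155 and 682 with the second, and 1419 and 640 in the main fit. Log2 of the signal plus 16 gave 28 members that differed between lines. A trend in the variance prior gave 40 lower, 15 higher, 46 different between lines and 9 corepressors, while 22.2% of all genes were lower and 11.0% higher. It called 5 named members that the main fit did not, while Zfp521 and Zfp324 lost their call. The methods' test on dose alone, unadjusted, gave 21 lower and 5 higher, and 2 and 0 after Benjamini-Hochberg adjustment. Of all genes, 9.63% were lower and 4.72% higher unadjusted, and 1.18% and 0.930% after adjustment.

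Without replicate 1, 2 or 3 in turn, when each dose kept 2 arrays, 0 members were lower each time, 0 to 1 were higher (Zfp318, without line 3), 8, 16 and 6 differed between lines and 0 corepressor genes were called. At an unadjusted p under 0.05 in limma, 53, 44 and 39 members were lower and 9, 12 and 15 higher without lines 1, 2 and 3. With all lines, 58 members were lower and 21 higher at that threshold, beside 2695 and 1204 of all 9678 genes. The planned split by KRAB box was not run, as protein sequences were not used here. The fold changes of Zfp423, Zfp41, Zfp324, Zfp316 and Zfp521 rest on signals under 100, below the expression minimum. Those of Zfp78 and Zfp759 do too, as their means were under 100 at both doses.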
